A study of Mus musculus with 60 samples.

Results

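Cytosolic ribosomal protein genes encode the protein parts of the ribosome that translates nuclear messages. Members were chosen by name: Rpl or Rps with a number and an optional final letter, plus Rplp0, Rplp1, Rplp2 and Rpsa, without pseudogenes, without paralogues that end in l and without the S6 kinases. The rule found 76 of the 21938 protein-coding genes on chromosomes 1 to 19, X and Y of the GENCODE M21 annotation, 46 of the large subunit and 30 of the small subunit. Of the 76, 48 had at least 1 peak of any class in the 12 peak lists and 28 had none.

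The data were CUT&RUN-seq peak lists of H4K8ac, a histone acetylation of active genes, and of H3K27me3, a histone methylation of repressed genes. The nuclei were those of the hippocampus of male Emx1-NuTRAP mice, in which Cre driven from Emx1, mostly in excitatory neurons and also in neural progenitors, switches on tags for nuclei and for ribosomes. All groups carried both alleles, and the ribosome tag is itself a fusion with the ribosomal protein L10a. Mice were either exercised, with a running wheel from postnatal day 21 to 41 (early-life exercise), or sedentary, in cages without a wheel over the same days. Nuclei and RNA were taken in a single isolation from both hippocampi (SIT), or nuclei were taken alone from one side of the brain (left separate or right separate). The word arm stands for each of these 3 isolations. The labels give 4 samples for each antibody and condition in SIT and 3 in each separate arm, and 20 of the 60 samples are IgG controls that are not analysed here.

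Each of the 12 lists stands for 1 mark, condition and arm, without replicate values. A list gives the position, width and nearest gene of each peak, with no height, no read count and no sample of origin, so the depth is unknown. The H4K8ac lists held 12168 to 38136 peaks and the H3K27me3 lists 9899 to 25693. In SIT the exercised list was the longer one for both marks, and in the right separate arm the sedentary list was. In the left separate arm the sedentary list was longer for H4K8ac and the exercised list for H3K27me3. A longer list tends to name more genes, and list length differed within every pair of exercised and sedentary lists, so it cannot be told apart from condition. No test between lists was possible. Intervals are exact binomial 95% intervals over genes, and they cover counting error only.

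The lists were checked against markers of the labelled cell type. Of 8 excitatory neuron markers, 3 to 5 had an H4K8ac promoter peak in each list, and all 8 had one in at least 1 list. Of 8 interneuron markers, including Gad1, Gad2 and Sst, none had an H4K8ac promoter peak in any list, and 6 or 7 had an H3K27me3 promoter peak in each. Markers of other cells were not all without H4K8ac, with 1 to 4 of 8 astrocyte, 1 or 2 of 8 oligodendrocyte, 1 or 2 of 8 microglia and 0 or 1 of 8 endothelial markers per list. Slc1a2, Mbp and P2ry12 had an H4K8ac promoter peak in 6 of 6 lists. The part of other cells in the results below was not tested.

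Ribosomal proteins are made in near equal amounts, and their genes are among the most active in nearly every cell. Many of their messages start with a C followed by a run of pyrimidines, the terminal oligopyrimidine (TOP) tract, through which mTOR signalling sets their translation. In neurons, new ribosomal protein is also made in dendrites and axons, and protein synthesis is needed for lasting synaptic change.

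Promoter sequences show what lay beneath or beside these peaks. They were taken from RefSeq (GRCm38.p6) for 7 members whose RefSeq start lay within 20 bases of the main GENCODE start site. Each runs 5′ to 3′ along the gene's strand, from 150 bases before the main start site through 25 bases from that site on. Capitals mark GGGCGG (SP1), CCGGAAG (ETS) and AAGATGG (YY1) on either strand, and a TOP run of 5 or more pyrimidines that begins with C at the RefSeq start. Rpl34, Rps7 and Rpl31 are shown as members with H4K8ac in most lists. Rpl34 lies at chr3:130730374-130730548 on the minus strand, Rps7 at chr12:28635929-28636103 on the minus strand and Rpl31 at chr1:39367692-39367866 on the plus strand.
Rpl34: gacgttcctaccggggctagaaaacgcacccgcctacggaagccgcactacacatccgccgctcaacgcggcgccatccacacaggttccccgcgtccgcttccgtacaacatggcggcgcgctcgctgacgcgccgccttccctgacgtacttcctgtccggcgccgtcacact
Rps7: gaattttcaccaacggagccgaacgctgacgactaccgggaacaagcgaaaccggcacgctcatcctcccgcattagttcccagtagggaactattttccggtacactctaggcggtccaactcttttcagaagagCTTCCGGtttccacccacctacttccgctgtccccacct
Rpl31: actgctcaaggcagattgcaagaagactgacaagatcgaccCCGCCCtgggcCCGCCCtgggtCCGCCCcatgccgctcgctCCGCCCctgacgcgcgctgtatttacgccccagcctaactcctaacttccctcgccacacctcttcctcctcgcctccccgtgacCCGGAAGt
Rpl13a, whose peaks were in the exercised lists, lies at chr7:45128737-45128911 on the minus strand.
Rpl13a: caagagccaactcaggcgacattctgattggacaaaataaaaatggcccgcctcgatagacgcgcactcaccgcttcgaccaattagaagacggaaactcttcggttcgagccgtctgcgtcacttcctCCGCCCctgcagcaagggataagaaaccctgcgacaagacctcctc
Rps18, Rps21 and Rplp0 are shown as members without an assigned H4K8ac promoter peak in any list. Rps18 lies at chr17:33955653-33955827 on the minus strand, Rps21 at chr2:180257227-180257401 on the plus strand and Rplp0 at chr5:115559317-115559491 on the plus strand.
Rps18: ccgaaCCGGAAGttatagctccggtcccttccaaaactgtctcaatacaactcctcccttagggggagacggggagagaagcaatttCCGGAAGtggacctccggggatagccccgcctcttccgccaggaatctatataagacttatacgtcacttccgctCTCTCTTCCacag
Rps21: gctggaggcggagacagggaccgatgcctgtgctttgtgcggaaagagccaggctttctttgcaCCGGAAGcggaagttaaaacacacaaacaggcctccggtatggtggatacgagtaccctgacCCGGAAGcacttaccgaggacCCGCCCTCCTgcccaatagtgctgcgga
Rplp0: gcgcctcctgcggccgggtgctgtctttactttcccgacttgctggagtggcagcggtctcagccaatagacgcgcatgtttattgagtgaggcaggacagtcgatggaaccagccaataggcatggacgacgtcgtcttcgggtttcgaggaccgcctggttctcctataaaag
An H4K8ac peak covered the whole printed stretch of Rps7 in 4 of 6 lists and part of it in 1 more. For Rpl34 and Rpl31 a peak reached into the stretch in 4 lists each and covered all of it in 1 list each. No peak reached the stretches of Rpl13a, Rps21 or Rplp0. At Rps18 a peak reached in from the neighbouring gene Vps52 in 1 list. TOP runs stood at the RefSeq starts of Rps18 (9 bases) and Rps21 (5 bases), where the first base of the run is also the last of the SP1 match. Rpl31 had 4 GGGCGG matches, and Rps21, which no peak reached, had 2 CCGGAAG matches.

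A promoter sequence of 300 bases, 250 before and 50 after the RefSeq start, was matched by symbol for 56 of the 76 members and for 16538 protein-coding genes. GGGCGG was present in 33 of the 56 members (58.9%) and in 48.5% of all promoters. CCGGAAG was present in 21 (37.5%) against 12.4%, and AAGATGG in 8 (14.3%) against 6.40%. No CCGGAAG match overlapped an AAGATGG match in a member. A TOP run stood at the RefSeq start of 12 members (21.4%) and of 2.15% of all genes, with Rps6, Rpl38, Rps27, Rpl35 and Rps15a among the members. The RefSeq start lay within 20 bases of the main start site for 24 of the 56 members and 9355 of all genes, and of these 3 members (12.5%) and 2.15% of all genes had a TOP run. No transcript start was measured here, and a run that began at another base was not counted, so these shares are not shares of TOP messages. The median promoter had 57.3% G and C with 21 CpG in members, against 57.0% and 14 in all genes.

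These letters were found in members with and without H4K8ac. Of the 30 matched members with an H4K8ac promoter peak in any list, 16 had GGGCGG, 11 had CCGGAAG, 4 had AAGATGG and 7 had a TOP run. Of the 26 without, 17 had GGGCGG, 10 had CCGGAAG, 4 had AAGATGG and 5 had a TOP run. The median G and C content was 57.3% and 57.5%. A match is a description of letters and not a bound site.

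H4K8ac was called at the promoters of a share of ribosomal protein genes close to that of all genes, averaged over lists. A promoter peak is a peak that the authors' annotation placed within 3 kb of the start site of the gene it was assigned to. The mean share over the 6 H4K8ac lists was 21.1% of the members (range 5.26 to 42.1%) against a mean of 19.3% of all protein-coding genes, a difference of 1.79 percentage points. Without the sedentary left separate list the difference was -0.95 points (16.8% against 17.8%). It was also below 0 with peaks of any class (-2.57 points), with the widest 50% of peaks (-4.14) and with equal numbers of peaks (-3.45).

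In the exercised SIT list 23 members had an H4K8ac promoter peak (30.3%, interval 20.2 to 41.9%) beside 28.4% of all genes. In the sedentary SIT list 11 did (14.5%, 7.45 to 24.4%) beside 18%. In the left separate arm 4 did in the exercised list (5.26%, 1.45 to 12.9%) beside 10.3%, and 32 in the sedentary list (42.1%, 30.9 to 54.0%) beside 26.6%. In that last list the interval lay above the share of all genes, and in the other 5 lists it included that share. In the right separate arm 11 did in the exercised list (14.5%, 7.45 to 24.4%) beside 12.5%, and 15 in the sedentary list (19.7%, 11.5 to 30.5%) beside 19.7%.

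**Figure D1:**
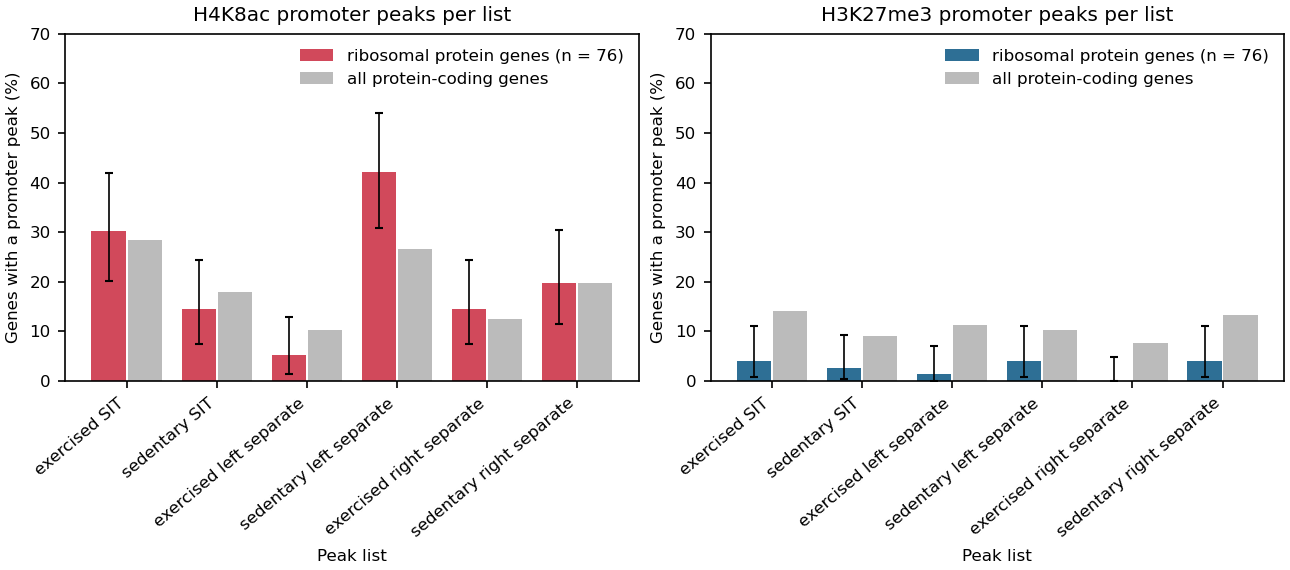
Share of genes (%) with a promoter peak in each of the 12 peak lists, for the 76 ribosomal protein genes (coloured bars, with exact binomial 95% intervals over genes) and for all protein-coding genes (grey bars), with H4K8ac on the left and H3K27me3 on the right. H4K8ac shares of members ran from 5.26 to 42.1% around the grey bars, while H3K27me3 shares of members, 0 to 3.95%, lay below the grey bar in all 6 lists.

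No member had H4K8ac in all lists. Of the 76, 33 had no H4K8ac promoter peak in any list, 15 had one in 1 list, 13 in 2, 8 in 3, 4 in 4, 3 in 5 and 0 in 6. Over all protein-coding genes, 956 (4.36%) had one in 6 of 6 lists. Of genes with at least 1 list, 34.9% of members were in 1 list and 6.98% in 5 or 6, against 28.5% and 22.5% of all genes. At the same time 56.6% of members had an H4K8ac promoter peak in at least 1 list, against 39.5% of all genes. Of the 15 members in 1 list, 7 were in the sedentary left separate list, which held the most members, and without that list 36 members were left in place of 43.

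The members called most often were Rpl21, Rpl34 and Rps7, each in 5 lists. Rpl34 (chromosome 3), a large subunit protein, had peaks of 2192, 1668, 861, 1436 and 1031 bp in the exercised SIT, exercised left, exercised right, sedentary left and sedentary right lists, and none in the sedentary SIT list. Its SIT peak covered the start site, and the other 4 ended 5 to 285 bases before it. Rps7 (chromosome 12), a small subunit protein, was called in every list but the exercised left one, with widths of 584 to 1730 bp. Its peak covered the start site in 4 of the 5 lists and ended 40 bases upstream in the sedentary SIT list. Rpl21 (chromosome 5), of the large subunit, was also missing from the exercised left list alone, with widths of 868 to 2575 bp. The exercised left list was the shortest of the 6.

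Rpl10a, Rpl31, Rpl37a and Rps6 were each in 4 lists. Rps6 encodes the protein whose phosphorylation by S6 kinases is widely used as a readout of mTOR activity in neurons. It had H4K8ac in the exercised SIT, exercised right, sedentary left and sedentary right lists, with a peak of 2334 bp over its start in exercised SIT and peaks ending 64 to 296 bases upstream in the other 3, beside a second peak in sedentary left. Rpl10a, whose protein carries the ribosome tag of this mouse line, had peaks of 968 to 1411 bp in both SIT and both left separate lists. It had none in the right separate lists. Each peak covered the start of the transcript it was assigned to, while the main start site lay in a peak in 2 lists. Whether reads of the tagged copy reached this locus was not tested. The widest H4K8ac promoter peak of a member was 2579 bp at Rpl31 in exercised SIT.

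Members in 3 lists included Rpl13a, Rpl24, Rpl27a, Rplp1, Rps9, Rps23 and Rpsa. Members in 2 lists included Rpl3, Rpl6, Rpl14, Rpl15, Rpl19, Rpl29, Rpl30, Rplp2, Rps14, Rps20, Rps26 and Rps27a. Members in 1 list included Rpl10, Rpl13, Rpl22, Rpl23, Rpl28, Rpl32, Rpl37, Rps3, Rps10, Rps12, Rps15, Rps24, Rps27 and Rps29.

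**Figure D2:**
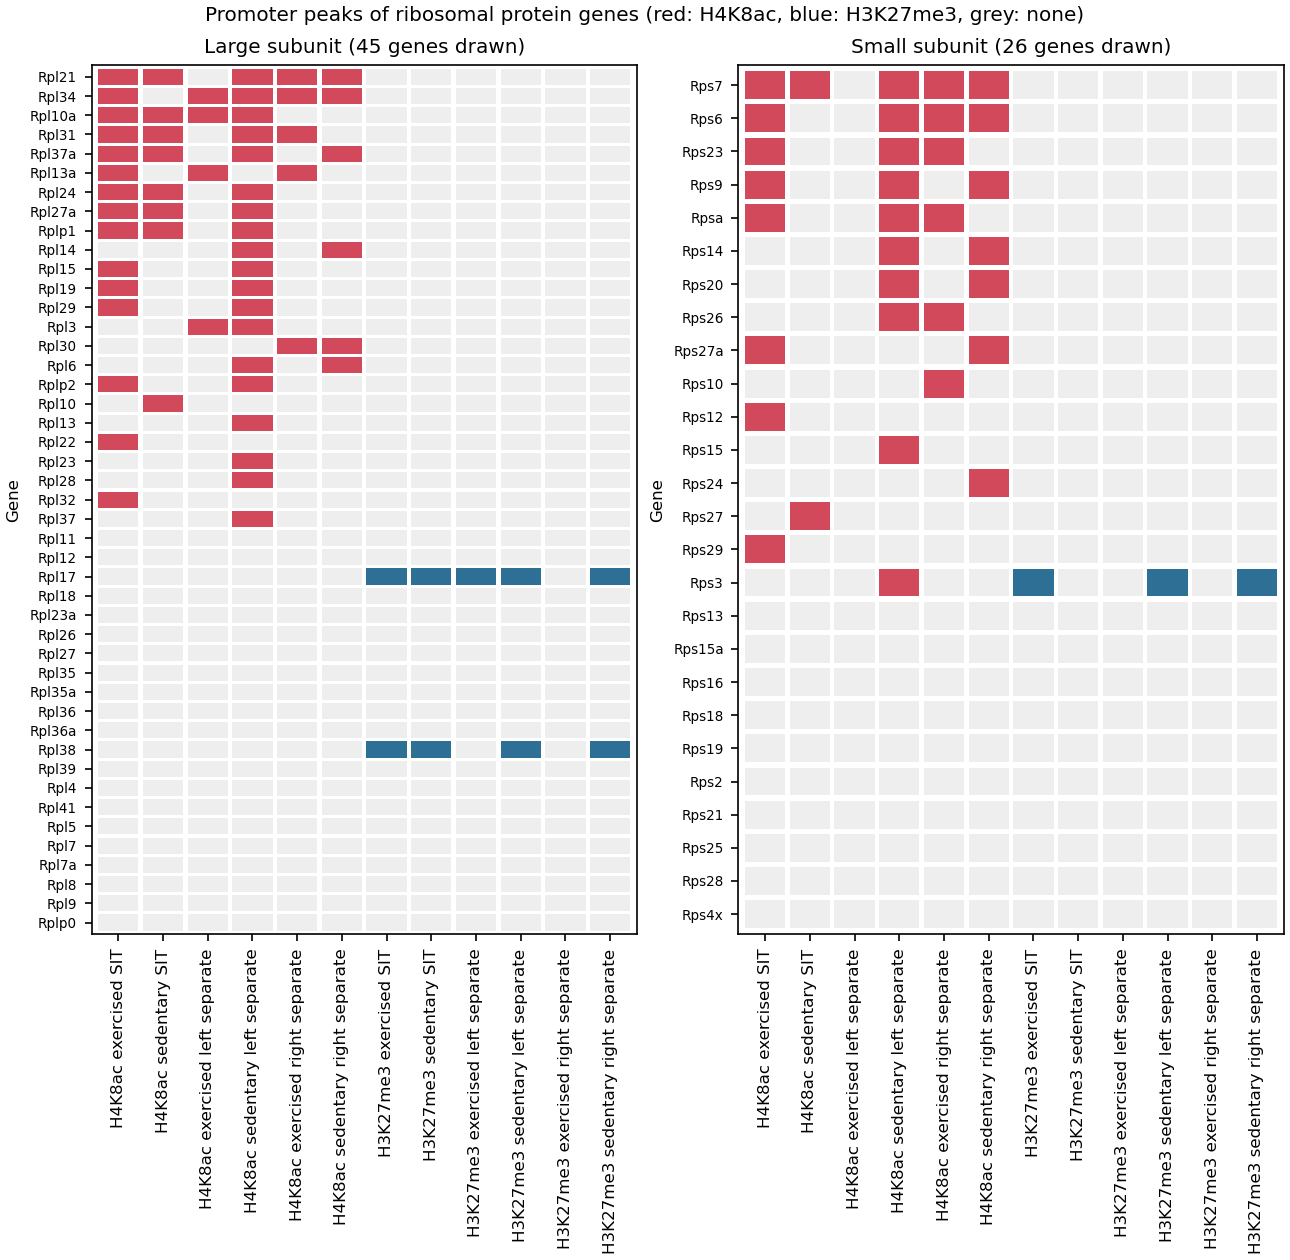
Promoter peaks of 71 ribosomal protein genes (rows, by subunit, ordered by the number of H4K8ac lists) in each of the 12 peak lists (columns), with red for an H4K8ac promoter peak, blue for an H3K27me3 promoter peak and grey for none. Red cells are spread over 40 of the genes drawn, with none filled across all 6 columns, and blue cells are at Rpl17, Rpl38 and Rps3.

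Marked and unmarked members were found in both subunits and in several roles. H4K8ac was called in at least 1 list at 18 of 30 small subunit genes (60%) and 25 of 46 large subunit genes (54.3%). Over all protein-coding genes the share was 39.5%, and the smaller groups below hold too few genes to be set against it. Of the stalk that recruits translation factors, Rplp1 was in 3 lists and Rplp2 in 2, while Rplp0 and Rpl12 had no assigned promoter peak. Rpl5 and Rpl11, which form the 5S RNA particle and bind Mdm2 when ribosome assembly fails, were in 0 lists. Rpl4, Rpl17 and Rpl39, which line the exit tunnel of the nascent chain, were also in 0 lists. Rps27a, made as a fusion with ubiquitin, was in 2. Of 13 proteins of the small subunit head 7 were called, among them Rps20 in 2 lists. Of the 4 X-linked members, Rpl10 was called in 1 list and Rpl36a, Rpl39 and Rps4x in none.

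The 33 members without an H4K8ac promoter peak included Rpl4, Rpl5, Rpl7, Rpl7a, Rpl8, Rpl9, Rpl11, Rpl12, Rpl17, Rpl18, Rpl23a, Rpl26, Rpl27, Rpl35, Rpl35a, Rpl36, Rpl36a, Rpl38, Rpl39, Rpl41, Rplp0, Rps2, Rps4x, Rps13, Rps15a, Rps16, Rps18, Rps19, Rps21, Rps25 and Rps28. Each peak was assigned to 1 gene, so a peak between close starts counts for a single gene of the pair. Another protein-coding start lay within 1 kb of the main start of 9 of these 33 (27.3%) and of 3 of the 43 called members (6.98%). A peak assigned to a neighbour lay within 1 kb of a start of Rpl12 (assigned to Lrsam1), Rpl41 (Zc3h10), Rps18 (Vps52), Rps25 (Trappc4) and Rps28 (Ndufa7). Counting a peak of any assigned gene within 1 kb of a start, 46 members (60.5%) had H4K8ac in at least 1 list, against 36.8% of all genes. Gene length differed little, with a median of 3737 bp in the members without and 3211 bp in the members with an H4K8ac promoter peak, against 17425 bp over all protein-coding genes.

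H4K8ac promoter peaks of ribosomal protein genes covered the start or lay upstream of it, and few lay downstream. The members had 99 H4K8ac promoter peaks in all, of which 52 covered the start site of the transcript they were assigned to (52.5%), 44 lay upstream (44.4%) and 3 downstream (3.03%). Of the 33150 promoter peaks of all protein-coding genes, 54.6% covered it, 24.2% lay upstream and 21.2% downstream. These peaks include the same gene in several lists and are not independent. Promoter peaks of one member in different lists fell on the same place, with overlap in 87 of 91 pairs of lists over 28 members, and the exceptions were at Rpl24 and Rps23. Members' promoter peaks were narrower, with a median width of 1391 bp against 1638 bp over all promoter peaks, and in each of the 6 lists the members' median was the lower one.

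The share of start sites under a peak was followed from 3 kb upstream to 3 kb downstream of each gene's main start. At 500 bp upstream it was 31.6% of members against 18.7% of all genes in the exercised SIT list, and 11.8% against 8.18% in the sedentary SIT list. It was 5.26% against 5.19% in the exercised left list and 42.1% against 14.9% in the sedentary left list. It was 11.8% against 6.65% in the exercised right list and 19.7% against 12.2% in the sedentary right list. The members' share was thus the higher one in all 6 lists, with 4 members carrying it in the exercised left list. At 500 bp downstream the members' share was 15.8% against 16.4% in the exercised SIT list, 13.2% against 11.7% in the sedentary left list and 0 to 6.58% in the other 4, each below all genes. At 1 kb downstream the members' share was the lower one in all 6 lists, with 0 to 3 members (0 to 3.95%) against 3.65 to 11.4% of all genes. At the start site itself the members' share was higher in the exercised SIT, sedentary left and sedentary right lists and lower in the other 3.

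**Figure D3:**
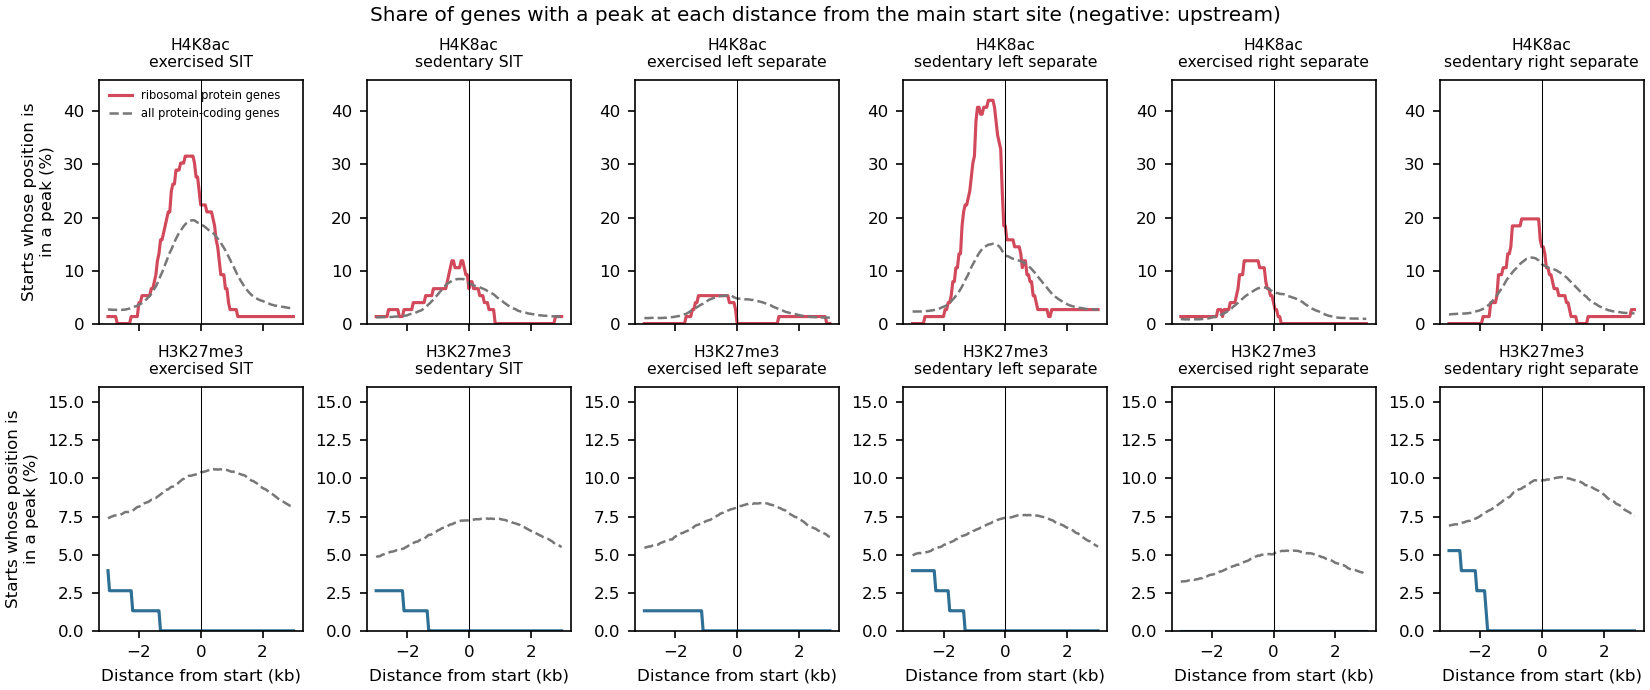
Share of main start sites (%) with a peak at each distance from the start (kb, negative upstream, 50 bp steps) for ribosomal protein genes (solid) and all protein-coding genes (dashed), 1 panel per list, with H4K8ac above and H3K27me3 below. The H4K8ac curve of members is highest upstream of the start, at 42.1% in the sedentary left list, and falls below the dashed curve by 1 kb downstream, while the H3K27me3 curve of members is at 0 from 1 kb upstream onward.

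H3K27me3 was not called at the start of any ribosomal protein gene. No member had an H3K27me3 peak within 1 kb of an annotated start in any of the 6 lists (0 of 76, with an upper limit of 4.74%), against 3291 of 21938 protein-coding genes (15.0%). In the wider window of 3 kb, 3 members had an H3K27me3 promoter peak in the exercised SIT list (3.95%) beside 14.2% of all genes, and 2 in the sedentary SIT list (2.63%) beside 9.01%. There was 1 in the exercised left list (1.32%) beside 11.3%, and 3 in the sedentary left list (3.95%) beside 10.2%. There were 0 in the exercised right list beside 7.73%, and 3 in the sedentary right list (3.95%) beside 13.3%. The mean over lists was 2.63% of members against 11% of all genes, a difference of -8.33 points that stayed between -6.42 and -12.5 under each alternative that was run. The upper end of the members' interval lay below the share of all genes in the exercised SIT, exercised left, exercised right and sedentary right lists and above it in the sedentary SIT and sedentary left lists.

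All 12 H3K27me3 promoter peaks of members lay upstream, and all were at Rpl17, Rpl38 and Rps3. At Rpl17, an exit tunnel protein, a peak of 4547 to 5580 bp ended 1150 to 2281 bases before the start in 5 lists. The widest one, 5580 bp in the sedentary right list, was the widest H3K27me3 promoter peak of a member. The exercised right list also held a peak assigned to Rpl17, 3.13 kb upstream and so just outside the promoter window. At Rpl38, a large subunit protein needed for translation of Hox messages in the embryo, a peak of 2664 to 3283 bp ended 1335 to 2117 bases before the start in 4 lists. At Rps3, a small subunit protein at the entry of the message channel, a peak of 1970 to 3095 bp ended 1844 to 2979 bases before the start in 3 lists. Rps3 also had an H4K8ac peak of 1831 bp over its start in the sedentary left list, whose H3K27me3 peak began upstream of it. Rpl17 and Rpl38 had no H4K8ac promoter peak.

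Peaks far from any promoter were assigned to the gene with the nearest start, and a few members took most of them. Of the 294 H3K27me3 peaks assigned to members, 222 (75.5%) were distal intergenic, against 45.3% of all H3K27me3 peaks, and 12 (4.08%) were promoter peaks, against 20.3%. Rps29 alone took 177 of them (60.2%), at 15 to 39 per list, with a median distance of 378 kb from its start and none nearer than 24.6 kb. Rpl34 took 39 and Rplp1 took 36, at medians of 52.3 and 76.1 kb. Of the 269 H4K8ac peaks assigned to members, 99 (36.8%) were promoter peaks, against 23.5% of all H4K8ac peaks. Rps24 took 66 H4K8ac peaks, of which 1 was a promoter peak, with a median distance of 126 kb. Peaks of any class therefore say little of the members' own promoters, and the counts above use promoter peaks.

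**Figure D4:**
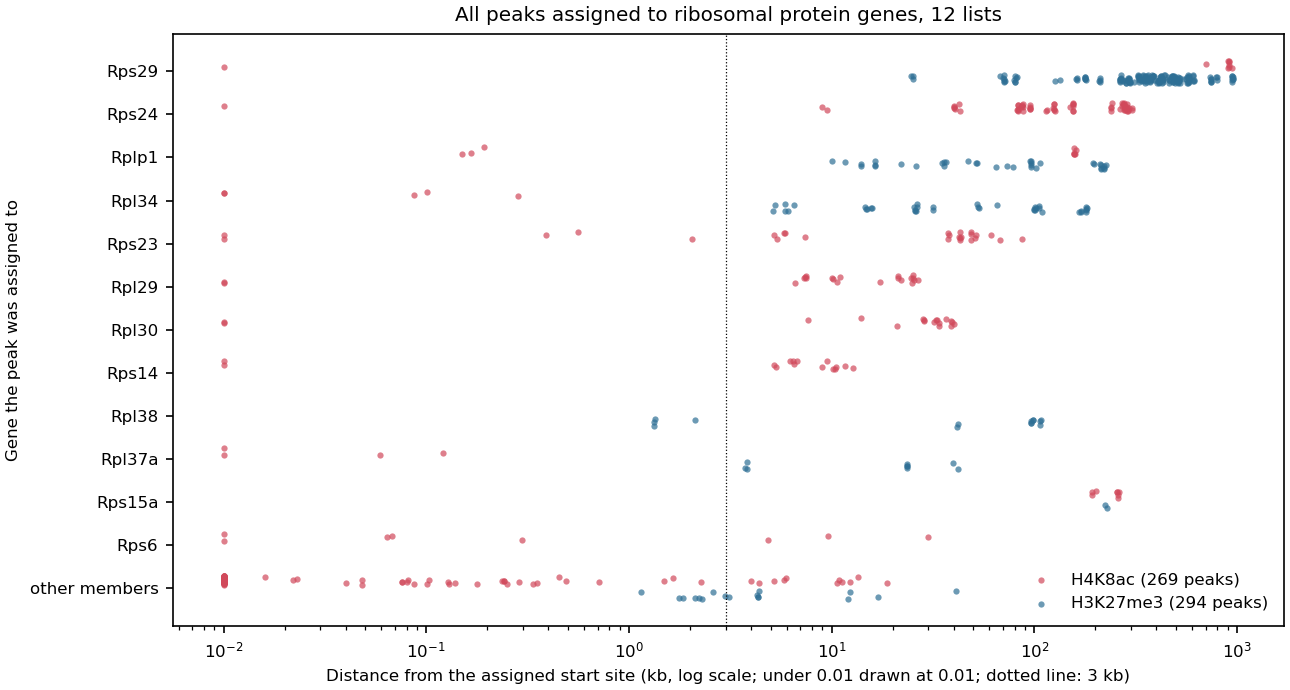
Distance (kb, log scale) between the assigned start site and each of the 269 H4K8ac (red) and 294 H3K27me3 (blue) peaks assigned to ribosomal protein genes, for the 12 genes with most peaks and all other members together, with 3 kb as a dotted line. Blue points lie beyond 1 kb in every row, with 177 of them at Rps29, and the red points at the left edge cover the start site or lie within 0.01 kb of it.

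Exercise was compared by asking which members had a promoter peak in 1 list of a pair only. A member gained a peak when it was in the exercised list alone and lost one when it was in the sedentary list alone. In the lists as deposited, gains outnumbered losses in SIT, and losses outnumbered gains in the left separate arm and, by less, in the right one. With 1 list per condition in each arm, none of these differences was tested. In SIT 15 members gained an H4K8ac promoter peak (19.7%) beside 14.3% of all genes, and 3 lost one (3.95%) beside 3.93%. In the left separate arm 1 gained one (1.32%) beside 1.57% and 29 lost one (38.2%) beside 17.9%. In the right separate arm 6 gained one (7.89%) beside 3.03% and 10 lost one (13.2%) beside 10.3%. The SIT gains were at Rpl13a, Rpl15, Rpl19, Rpl22, Rpl29, Rpl32, Rpl34, Rplp2, Rps6, Rps9, Rps12, Rps23, Rps27a, Rps29 and Rpsa, and the SIT losses included Rpl10 and Rps27. In the left arm Rpl3, Rpl10a and Rpl34 were in both lists and Rpl13a was the gain. The right gains were at Rpl13a, Rpl31, Rps10, Rps23, Rps26 and Rpsa, and the right losses included Rpl6, Rpl14, Rpl37a, Rps9, Rps14, Rps20, Rps24 and Rps27a. In each arm the larger H4K8ac count lay on the side of the longer list, for the members and for all genes.

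When the longer list of each pair was reduced to the length of the shorter one by peak width, the left separate arm had 4 gains and 1 loss, the right separate arm 11 gains and 6 losses, and SIT 12 gains and 6 losses. This trim acts on 1 list of a pair, taking narrow peaks from the longer list and leaving peaks of the same width in the shorter one, and the members' median peak width was the lower one in every H4K8ac list, so these counts do not give a direction of change. The members' share was then 22.4% exercised and 14.5% sedentary in SIT, 5.26% and 1.32% in the left arm, and 14.5% and 7.89% in the right arm. Over all genes it was 24.2% and 18.0%, 10.3% and 10.5%, and 12.5% and 10.9%. With the widest 50% of each list, which acts on both lists, the left arm had 0 gains and 11 losses, the right arm 0 and 5, and SIT 9 and 4. The members' exercised share minus the sedentary one was then -14.5 points in the left arm, -6.58 in the right and 6.58 in SIT. Over all genes this difference had the same signs, at -9.96, -3.87 and 5.81 points. The authors left out some exercised H4K8ac samples, from the separate isolations and from SIT, for a high false discovery rate, and the numbers of SIT mice they give beside the peak calls are below those of the labels in both conditions, so the lists, exercised or sedentary, may rest on fewer samples. Its part in these counts was not tested.

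**Figure D5:**
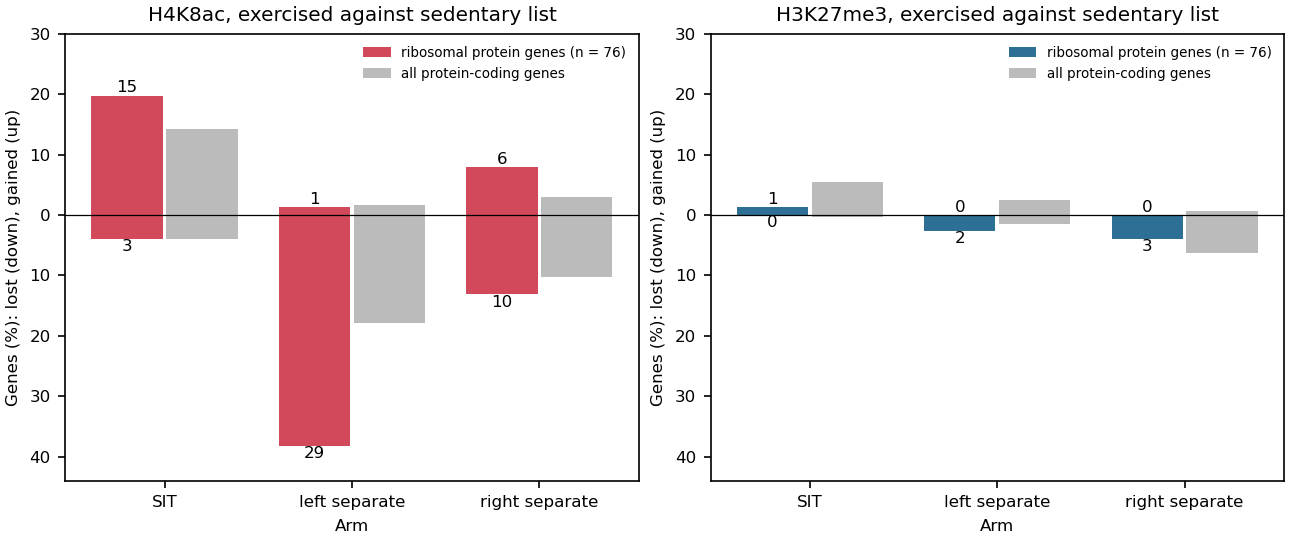
Share of genes (%) that gained (up) or lost (down) a promoter peak in the exercised list of each arm, for the 76 ribosomal protein genes (coloured bars, with counts) and all protein-coding genes (grey bars), with H4K8ac on the left and H3K27me3 on the right. For H4K8ac, 15 members gained and 3 lost a peak in SIT, while 1 gained and 29 lost one in the left separate arm.

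Members went the same way in some pairs of arms and opposite ways in others. Of the 15 members that gained H4K8ac in SIT, 8 lost it in left separate (53.3%, against 42.9% of all genes gained in SIT) and 1 gained it there (6.67%, against 3.70%). In right separate 2 of the 15 lost it (13.3%, against 24.8%) and 3 gained it (20%, against 8.19%). Of the 10 members lost in the right arm, 8 were also lost in the left (80%, against 47.2% of all genes lost in the right), which is 27.6% of the 29 lost in the left, against 27.1%. Of the 6 gained in the right arm, 4 were lost in the left (66.7%, against 46.5%) and 1 was gained there (16.7%, against 6.47%). Each arm has lists of its own, so these counts share no list.

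Rpl13a was the member that gained an H4K8ac promoter peak in all 3 arms, and 21 protein-coding genes did so in all (0.0957%). Rpl13a, a large subunit protein that is also known for silencing inflammatory messages once released from the ribosome, had peaks of 1174, 1073 and 986 bp in the exercised SIT, left and right lists, which ended 241, 288 and 241 bases before the start. None of the 3 sedentary lists had a peak within 1 kb of its start. These peaks overlapped each other and lay within chr7:45129002-45130175, upstream of the stretch printed above.

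Over all protein-coding genes, 75 (0.342%) lost H4K8ac in all 3 arms. The call of Rpl13a was not kept with the widest 50% of peaks or with equal numbers of peaks. Rpl13a kept its call with promoter peaks within 1 kb, with peaks of any class, and with peaks of any assigned gene near a start.

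For H3K27me3, Rps3 was gained in SIT (1.32%, beside 5.47% of all genes) and 0 members were lost (beside 0.278%). In the left separate arm 0 were gained (beside 2.54%) and Rpl38 and Rps3 were lost (2.63%, beside 1.42%). In the right separate arm 0 were gained (beside 0.624%) and Rpl17, Rpl38 and Rps3 were lost (3.95%, beside 6.21%). The loss of Rpl17 rests on the 3 kb window, since the exercised right list held a peak 3.13 kb upstream of it. No member was gained or lost in all 3 arms, where 9 genes (0.041%) were gained and 4 (0.0182%) lost over all genes. None of these peaks lay within 1 kb of a start.

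Lists of the same condition shared a varying part of the members. In sedentary mice, 9 members had H4K8ac in both SIT and left separate, 4 in SIT and right separate, and 12 in left and right. The 9 were 81.8% of the members in the SIT list and 28.1% of those in the left list, against 73.2% and 49.5% of all genes. The 4 shared with the right were 36.4% of the SIT and 26.7% of the right members, against 65.8% and 60.1%. The 12 shared between hemispheres were 37.5% of the left and 80% of the right members, against 58.0% and 78.3% of all genes. In exercised mice 3 members were shared between SIT and left, 13.0% of the SIT and 75% of the left members, against 32.6% and 89.8% of all genes. There were 8 shared between SIT and right, 34.8% and 72.7%, against 38.3% and 87.0%. The 2 shared between left and right were 50% and 18.2%, against 60.6% and 50% of all genes.

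Other genes of translation were read in the same way. Of 78 mitochondrial ribosomal protein genes, which serve the separate ribosome of mitochondria, 8 to 33 had an H4K8ac promoter peak per list. Their mean share was 28.2%, beside 19.3% of all genes, and 48 (61.5%, beside 39.5%) had one in at least 1 list. In SIT 12 gained one (15.4%, beside 14.3% of all genes) and 3 lost one (3.85%, beside 3.93%), and in the left separate arm 2 gained one (2.56%, beside 1.57%) and 27 lost one (34.6%, beside 17.9%). In the right separate arm 4 gained one (5.13%, beside 3.03%) and 12 lost one (15.4%, beside 10.3%). Of 42 translation initiation factors 2 to 12 had one per list (mean 17.1%), of 9 elongation factors 2 to 4 (mean 31.5%), and of 36 ribosome assembly factors 1 to 10 (mean 13.9%). The mean over all genes was 19.3%. Of the 42 initiation factors 8 gained one in SIT (19%, beside 14.3%) and 3 lost one (7.14%, beside 3.93%), and 0 gained one in the left arm (beside 1.57%) and 8 lost one (19%, beside 17.9%). In the right arm 0 of them gained one (beside 3.03%) and 4 lost one (9.52%, beside 10.3%). None of the initiation or elongation factors had an H3K27me3 promoter peak in any list, beside 16.9% of all genes that had one. Mitochondrial ribosomal proteins and assembly factors had none within 1 kb of a start, beside 15.0% of all genes. Within 3 kb 7 (8.97%) and 5 (13.9%) of them had one, beside 16.9%. The absence of H3K27me3 at starts was thus shared by these lists.

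Paralogues and S6 kinases, which the naming rule leaves out, were also read. Of 7 paralogues 3 had an H4K8ac promoter peak in at least 1 list (42.9%), and of 10 S6 kinase genes, a family that includes kinases of Rps6, 5 did (50%), beside 39.5% of all genes. None of these had an H3K27me3 promoter peak, beside 16.9% of all genes that had one in at least 1 list.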

How the data were processed

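CUT&RUN-seq samples (H4K8ac, H3K27me3 and IgG antibodies, Emx1-NuTRAP hippocampus) were grouped by antibody, condition and arm from the labels. The authors aligned reads with Bowtie2 (version 2.4.1 per the labels), called peaks with SEACR and annotated them with ChIPseeker (1.8.6 per the labels) on mm10, with promoters within 3 kb of a start. How the samples of a group were combined is not given in the sources used here. The deposited tables hold peak coordinates, widths, annotation classes, distances and symbols. They hold no counts, signal or p-values, so each list was 1 value of its group, no test was made and no model was fitted.

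Peaks were tied to genes through the deposited transcript, and GENCODE M21 held 99.0% of the 31151 transcripts, with equal start and end. Between 0.434 and 1.05% of a list's peaks had no GENCODE gene. For every peak assigned to a member, the deposited symbol and the transcript gave the same gene, which covers the 48 members with a peak. The main start site was that of the best-ranked APPRIS transcript, then the longest. The overlap code was tested on simulated data, where 20 of 20 random peak sets gave the result of a base-by-base count. The members and gene lists were chosen with earlier results of these data known. Named members were those called in all or none of the H4K8ac lists, those with H3K27me3, those gained or lost in 3 arms, and those with the widest peaks. Since 0 were in all lists, those in 4 and 5 lists were named after their values were seen, as were role examples and the unmarked members. Some members enter the counts but are not reported here by name. Alternatives were promoter peaks within 1 kb, peaks of any class, peaks of any assigned gene within 1 kb of a start, the widest 50% of peaks, equal numbers of peaks, genes with a peak in any list, and members with the genes outside the rule. Shares without 1 list and the difference per arm under each alternative, with limits from the exact binomial share of gains among changed members, were added after seeing the data. Software was Python 3.11.15, scipy 1.17.1, pandas 2.3.3, numpy 2.4.6 and matplotlib 3.10.9.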

Additional observations from a re-analysis of the deposited data

Results flagged for a closer look

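In the lists as deposited, the H4K8ac promoter share of the ribosomal protein genes differed in opposite directions in SIT and the left separate arm. Exercised minus sedentary, it differed by 15.8 percentage points in SIT (limits 4.07 to 22.0), by -36.8 points in the left separate arm (-39.4 to -25.9) and by -5.26 points in the right one (-14.7 to 6.13). The limits cover counting error over the changed members only, and those of the right arm include 0. They hold no spread between mice, so limits that leave out 0 do not show an effect of condition. Over all protein-coding genes the same differences were 10.4, -16.3 and -7.24 points. Each arm has 1 list per condition, so the difference between arms was not tested, and the sign in each arm was that of the difference in list length. With the widest 50% of each list the differences were 6.58, -14.5 and -6.58 points, against 5.81, -9.96 and -3.87 points over all genes. With the longer list of each pair trimmed by width to the length of the shorter, they were 7.89, 3.95 and 6.58 points, against 6.21, -0.23 and 1.59, but this trim removes narrow peaks from 1 list only, and the members' median width was the lower one in every H4K8ac list.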

How the results depend on the processing

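Of 128 values under alternative settings, 91 stayed within the interval of the reported value (shares and their differences) or within 1.5 times of it (counts), 34 moved beyond that and 3 turned the direction between exercised and sedentary lists. All 3 were with equal numbers of peaks. The H4K8ac difference became 3.95 points in the left separate arm, from -36.8, and 6.58 in the right, from -5.26, and the H3K27me3 difference in SIT became -1.32, from 1.32. The left H4K8ac difference was -14.5 points with the widest 50% of peaks and -40.8 with peaks of any assigned gene. With peaks of any class the H3K27me3 difference was 5.26 in SIT and -6.58 in the right arm. The small H4K8ac difference from all genes, 1.79 points, changed sign under 4 alternatives, with values down to -4.14. The mean H4K8ac share of members, 21.1%, was 6.36% with the widest 50% of peaks, 11% with equal numbers of peaks and 33.3% among genes with a peak in any list. The H3K27me3 share, 2.63%, was 0% with peaks within 1 kb by either definition and 10.3% with peaks of any class. The H3K27me3 difference from all genes was -12.5 points among genes with a peak in any list.

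With the widest 50% of peaks, H4K8ac gains numbered 9 (SIT), 0 (left separate) and 0 (right separate), and losses 11 (left) and 5 (right). Over all genes the exercised minus sedentary share was then 5.81 points (SIT), -9.96 (left) and -3.87 (right). With equal numbers of peaks, gains numbered 4 (left) and 11 (right), and losses 6 (SIT), 1 (left) and 6 (right). H3K27me3 gains in SIT were 0 with peaks within 1 kb by either definition and with equal numbers, and 4 with any class. H3K27me3 losses with equal numbers were 1 in SIT and 1 in the right arm. In the left arm they were 0 with peaks within 1 kb by either definition and with the widest 50%. In the right arm they were 0 within 1 kb by either definition, 5 with any class and 1 with the widest 50%. The settings by width and by promoter peaks within 1 kb count fewer peaks by construction, and the setting by class counts more. Equal numbers trims 1 list of a pair by width, so its turned signs are not read as a change of direction.

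No paired analysis was possible because the lists pool the samples, and leaving out replicates was not possible for the same reason. Depth is unknown, so a gene without a peak is not shown to lack the mark.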
